A study of Mus musculus with 6 samples.

Results

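The genes described here are 10 imprinted genes of stem cell quiescence and growth: Ndn, Igf2, Peg3, Plagl1, Dlk1, Mest, Cdkn1c, H19, Igf2r and Grb10. They were taken as every probe set of the array that carries 1 of these symbols and no other, which gave 27 of 45037 probe sets, for 9 of the 10 genes. H19 was represented by 0 such probe sets, because the 1 probe set that names it also names a second gene, and no value is given for it. The samples were Affymetrix arrays of sorted bone marrow cells negative for lineage markers and positive for Sca1, which are enriched in haematopoietic stem cells. WT mice (3 arrays) were compared with DKO mice (3 arrays), which lack the nuclear receptor genes Nr4a1 and Nr4a3. The DKO line came from crosses of the single mutants and has the strain label C57BL/6 and 129SvJ hybrid. All mice were 2 to 3 weeks old, and 10 to 20 of them contributed to every RNA pool; errors therefore describe pools, not single animals. The labels give no strain for the WT mice, and genotype and strain background cannot be told apart where they differ. Values are MAS5 signals, a linear measure of probe set brightness. Differences are DKO minus WT on the log2(signal + 16) scale, and "fell" or "rose" is used for an adjusted p under 0.05.

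An imprinted gene is read mainly from the copy inherited from a given parent. The copies are marked apart by DNA methylation, in most cases laid down in the germ line. Many such genes act on growth: paternally expressed ones often promote it and maternally expressed ones often restrain it, with exceptions in both sets. In blood, several are most abundant in long-term stem cells and decline as progenitors differentiate. Cdkn1c and Ndn both encode proteins that hold back the cell cycle. Igf2, Igf2r and Grb10 act on insulin-like growth factor signalling.

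The targeted genes checked the labels in part. Nr4a1 signal was 21.4 ± 12.9 (SD, n = 3) in DKO and 1065 ± 230 (n = 3) in WT. That fall was -4.89 ± 0.42 (adjusted p = 1.95e-04). The 3 Nr4a3 probe sets averaged below the limit for testing, so they do not check the labels by a test. None of the 10 genes lies on chromosome 15 or 4, which carry Nr4a1 and Nr4a3 in the RefSeq table for GRCm38.p6. Of the stem cell markers, 11 of 13 were measured, among them Kit, Cd34, Mecom, Procr and Hlf, while the sort marker Ly6a was not analysed here. In DKO 10 of the 11 were lower and 5 fell, while Slamf1 was higher (0.37 ± 0.38, adjusted p = 0.725). Kit and Cd34 were lower but did not pass (adjusted p = 0.166 and 0.0672). Over all 11529 tested genes, 5856 were lower and 73 fell. The summed signal of the stem cell markers was 34964 to 42456 in WT and 17216 to 20991 in DKO. Markers of maturing cells were also present. Neutrophil markers summed to 85058 in WT replicate 2, against 37118 and 17568 in WT replicates 1 and 3, and that array likewise had the highest B lineage and erythroid sums.

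Of the 27 probe sets, 17 were bright enough to be tested and covered 7 genes; Igf2 and Dlk1 had none. Exactly 1 of the 17, a probe set of Ndn, fell, and 0 rose. Over all 27022 probe sets tested, 1.37% changed: 0.563% fell and 0.807% rose. Lower values at any p were found in 11 of the 17 and in 54.4% of all. At an unadjusted p under 0.05 there were 5 of the 17, all of them Ndn, against 14.2% of all probe sets. These 5 read 1 gene on the same arrays and are not separate results. In 5 of the 17 every DKO array was below every WT array, 4 of Ndn and 1 of Igf2r, and in 0 was every DKO array above. Those shares over all tested probe sets were 11.1% and 8.76%. The median difference of the 17 was -0.42, beside -0.05 for all tested probe sets. Paternally expressed genes had 11 tested probe sets, 6 lower and 5 higher, and maternally expressed genes had 6, of which 5 were lower and 1 higher. With each gene taken at its brightest tested probe set, 1 of 4 paternally expressed genes, Ndn, was lower and 3 were higher. Their median was 0.12, which turned to -0.02 without WT replicate 1 and -0.09 without DKO replicate 3. All 3 maternally expressed genes were lower, with a median of -0.66. Over all 11529 tested genes 5856 were lower, with a median of -0.01. At these probe sets 0 of the 7 genes passed.

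**Figure D1:**
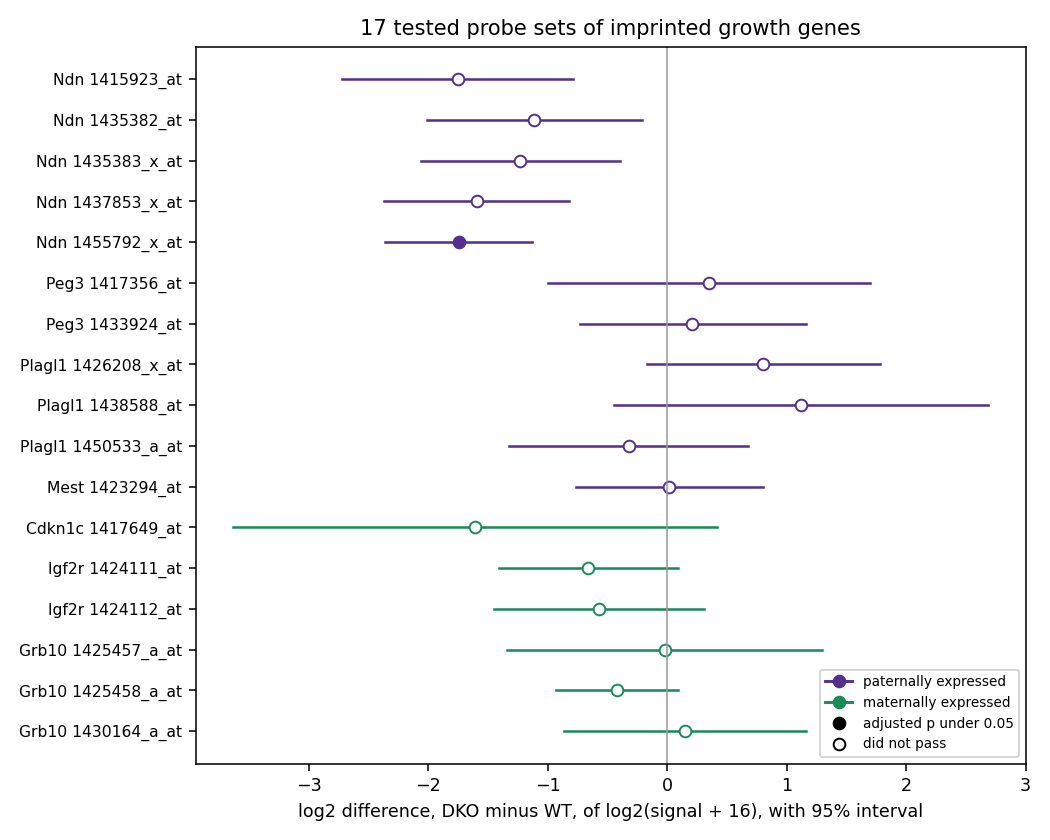
Log2 difference between 3 DKO and 3 WT arrays for the 17 tested probe sets, with 95% intervals from limma; purple marks paternally and green maternally expressed genes, and a filled point passed the threshold. The 5 Ndn probe sets lie between -1.75 and -1.11 with intervals below 0, and the intervals of the other 12 include 0.

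Ndn encodes necdin, a growth-suppressing protein of the MAGE family that binds E2F and p53 and is known for high levels in quiescent stem cells. It lies on chromosome 7 and is expressed from the paternal copy. The stretch of sequence around its start, 250 bases before to 50 after, is shown because it is the member that fell, with each CpG, the dinucleotide that imprinting methylates, in capitals (RefSeq, GRCm38.p6, chr7:62348027-62348326, plus strand).
Ndn promoter: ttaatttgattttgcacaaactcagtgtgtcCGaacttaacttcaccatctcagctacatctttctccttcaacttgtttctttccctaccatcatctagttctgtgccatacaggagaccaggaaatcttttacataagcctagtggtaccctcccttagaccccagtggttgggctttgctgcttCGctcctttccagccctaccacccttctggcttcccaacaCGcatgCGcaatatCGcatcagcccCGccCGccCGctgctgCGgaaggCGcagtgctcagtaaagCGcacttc
It holds 11 CpG dinucleotides, against a median of 7 over 32851 promoter windows of the same length. The median over the 14 windows found for the genes described here was 13.5.

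The array carries 8 probe sets of Ndn, and 5 of them could be tested. At probe set 1455792_x_at the WT signals were 1089.8, 1453.2 and 1275.6 and the DKO signals 294.6, 480.0 and 346.8. Every DKO pool was therefore at most at 37.7% of the WT mean. The log2 difference was -1.74 ± 0.28 (SE, 95% interval -2.36 to -1.13, adjusted p = 0.0114), a 3.35-fold fall on this scale. Probe set 1437853_x_at gave 1939.3, 1874.9 and 2340.7 in WT and 335.4, 937.2 and 930.7 in DKO. Its groups did not overlap either, with a difference of -1.59 ± 0.35 that narrowly missed the threshold (adjusted p = 0.0527). At 1415923_at the signals were 435.1, 284.7 and 191.4 in WT and 86.2, 95.5 and 48.6 in DKO. That difference was as large, -1.75 ± 0.44, but the WT pools were spread more widely and it did not pass (adjusted p = 0.0836).

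The remaining pair of tested Ndn probe sets differed from these mainly in DKO replicate 3. At 1435382_at WT gave 1160.4, 2345.3 and 1421.5, and DKO gave 419.1, 606.6 and 1454.1. At 1435383_x_at WT gave 1338.7, 2106.2 and 1253.1, and DKO gave 369.1, 592.3 and 1195.5. DKO replicate 3 was thus at 88.5% and 76.3% of the WT mean at these probe sets, but at 16%, 45.4% and 27.2% at the other 3. WT replicate 2 was also higher at this pair, at 143% and 134%, against 93.7%, 91.4% and 114%. DKO replicates 1 and 2 were low at all 5, between 16.3% and 45.7% of the WT mean. The differences were -1.11 ± 0.41 (adjusted p = 0.241), with overlapping groups, and -1.23 ± 0.38 (adjusted p = 0.160), without overlap. Without DKO replicate 3 they were larger, at -1.61 and -1.67, and neither passed. The other 3 Ndn probe sets had signals of at most 18.1 on any array and were not tested.

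**Figure D2:**
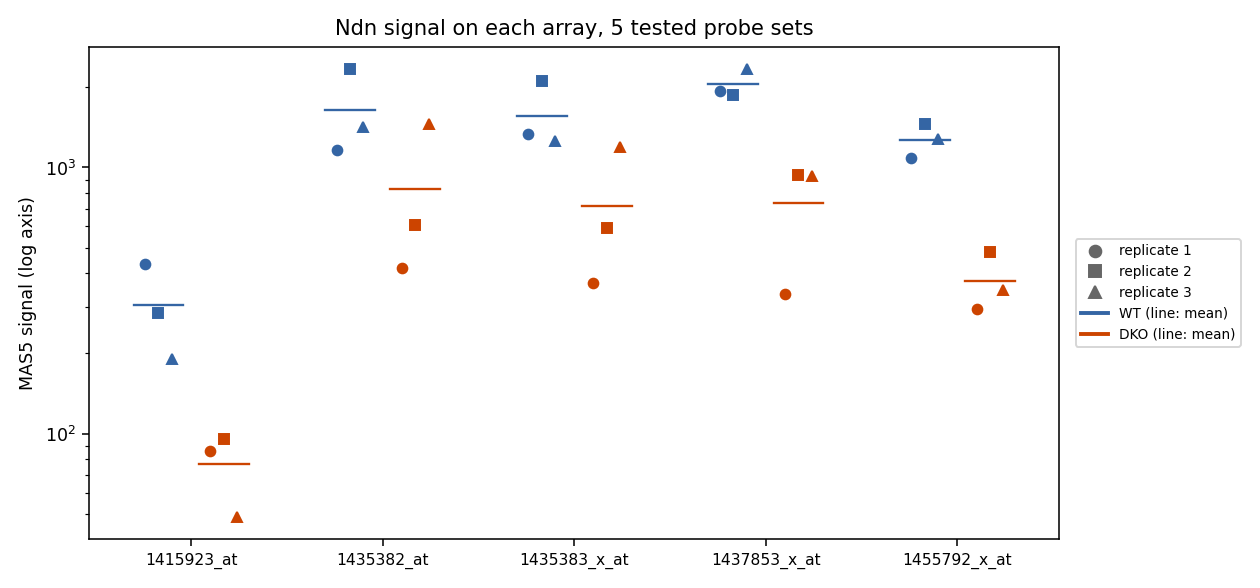
MAS5 signal (log axis) of the 5 tested Ndn probe sets on each array; symbols mark the replicate number, colours the group and lines the group mean. DKO replicates 1 and 2 lie below all WT arrays at each probe set, while DKO replicate 3 is close to WT at 1435382_at (1454.1) and 1435383_x_at (1195.5).

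The call at 1455792_x_at was lost without DKO replicate 1 (-1.59, adjusted p = 0.0639) or DKO replicate 3 (-1.71, adjusted p = 0.0623) and without an intensity trend in the variance model (adjusted p = 0.0594). Without WT replicate 2 it held (-1.64, adjusted p = 0.0254). Stem cell markers were lower in the same DKO pools, and their part in the Ndn result was not tested; in bulk RNA, fewer cells of a type and less RNA per cell cannot be told apart.

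Ndn sits among other paternally expressed genes, and those could be followed only in part. Its closest neighbours Magel2 and Mkrn3 were too dim, with signals of 20.1 to 44.1 and 1.8 to 38.0. Peg12, further along the same stretch, gave 152.8, 115.3 and 133.7 in WT and 77.7, 99.6 and 85.1 in DKO. All DKO pools were below all WT pools, yet the difference of -0.53 ± 0.40 did not pass (adjusted p = 0.593).

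Plagl1, a zinc finger transcription factor that can arrest the cell cycle and that regulates other imprinted genes, had 3 tested probe sets that did not point the same way. At 1426208_x_at WT gave 543.8, 2307.5 and 1767.7 and DKO gave 1789.2, 3397.1 and 1987.7. The groups overlapped, WT replicate 1 was the single low pool, and the difference was 0.80 ± 0.45 (adjusted p = 0.444). It was 0.18 without that pool, which also had the lowest stromal marker sum (4617); the part of those markers was not tested. At 1438588_at the difference was 1.12 ± 0.72 (adjusted p = 0.520), with WT signals of 146.2, 1.3 and 67.5 and DKO signals of 85.2, 106.8 and 178.3. At 1450533_a_at it was -0.32 ± 0.46 (adjusted p = 0.814). The intervals, -0.17 to 1.78, -0.44 to 2.69 and -1.32 to 0.68, leave changes of more than 1 log2 unit possible for each.

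Mest, which encodes an enzyme of the alpha/beta hydrolase family and promotes growth, was measured by 1 probe set. WT pools gave 490.1, 384.0 and 681.9 and DKO pools 329.0, 731.4 and 554.1. The groups overlapped fully, and the difference was 0.02 ± 0.36 with an interval of -0.76 to 0.80 (adjusted p = 0.991). Peg3, a zinc finger gene of growth and cell survival, had 2 tested probe sets of 5. At 1433924_at WT gave 207.3, 465.6 and 268.1 and DKO gave 216.8, 323.5 and 587.5, a difference of 0.21 ± 0.43 (adjusted p = 0.876). At 1417356_at single pools were high in both groups, WT replicate 3 at 224.0 and DKO replicate 2 at 322.7, and the others lay between 54.3 and 136.4. That difference was 0.35 ± 0.62 (adjusted p = 0.855), and it turned to -0.22 without DKO replicate 2. The sign at 1433924_at turned as well, to -0.03 without WT replicate 1 and -0.15 without DKO replicate 3.

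Igf2, a fetal growth factor, and Dlk1, a membrane protein related to Notch ligands, were both near the floor. At Igf2 probe set 1415931_at WT gave 8.6, 4.3 and 6.2 and DKO gave 41.1, 16 and 18.7. Every DKO value was higher, but all lay below the limit for testing, a signal of about 53.2, and in the fit with no filter, where 0.462% of 45037 probe sets changed, the difference of 0.84 had an adjusted p of 0.398. The second Igf2 probe set, 1448152_at, had a single bright pool, DKO replicate 2 at 201.0, against at most 34.6 on the other arrays. Dlk1 signals ranged from 5.0 to 89.8 at 1449939_s_at and from 1.8 to 107.5 at 1442724_at, where DKO replicate 2 was again the highest. Meg3, the maternally expressed RNA beside Dlk1, was tested at 2 of 11 probe sets, with differences of 0.39 and -0.33 that did not pass (adjusted p = 0.788 and 0.831).

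Among the maternally expressed genes, Cdkn1c had the largest difference and the widest spread. It encodes p57, a cyclin-dependent kinase inhibitor that stem cells use to stay out of the cycle. Its 1 probe set gave 368.2, 10.9 and 418.0 in WT and 79.5, 10.1 and 47.9 in DKO. WT replicates 1 and 3 were well above every DKO pool, but WT replicate 2 was as low as the lowest DKO pool. The difference was -1.61 ± 0.93 with an interval of -3.63 to 0.42 (adjusted p = 0.466). Without WT replicate 2, the array with the highest neutrophil, B lineage and erythroid marker sums, it was -2.91 and passed (adjusted p = 0.0295). With any other single array left out it lay between -2.01 and -1.0 where measured and did not pass. Of the 6 fits with 1 array left out, 5 measured Cdkn1c. Its DKO mean of 45.8 and WT replicate 2 lay below the limit for testing, about 53.2. It was therefore bright enough for testing only through WT replicates 1 and 3. The share of those markers in the low value was not tested. In the same array stem cell markers summed to 34964 (42456 and 41391 in the other WT pools), megakaryocyte markers to 431 (1191 and 1393) and endothelial markers to 3416 (2096 and 2689). Around Cdkn1c, Phlda2 was too dim to test (12.5 to 63.5), and the 5 tested probe sets of the paternal RNA Kcnq1ot1 differed by -0.61 to -0.05, with overlapping groups and 0 past the threshold.

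Igf2r encodes the receptor that carries IGF2 to lysosomes for breakdown. At 1424111_at WT gave 392.4, 447.5 and 393.4 and DKO gave 204.3, 216.2 and 364.5. No DKO pool reached a WT pool, though DKO replicate 3 came close, and the difference of -0.66 ± 0.34 did not pass (adjusted p = 0.408). At 1424112_at WT replicate 3, at 213.3, lay among the DKO pools (203.4 to 310.6) and the other WT pools were at 521.1 and 514.9. This gave -0.57 ± 0.40 (adjusted p = 0.566). Airn, the paternal RNA that runs antisense to Igf2r, had 3 tested probe sets with differences of -0.46, -0.39 and 0.53, all with overlapping groups. The probe set assigned to both Airn and Igf2r was left out.

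Grb10, an adaptor that restrains signalling from insulin and IGF receptors, had 3 tested probe sets. At 1425458_a_at WT gave 3935.2, 6926.6 and 4439.1 and DKO gave 3533.0, 4691.8 and 3041.5. Replicate 2 was the highest pool in both groups, the groups overlapped, and the difference was -0.42 ± 0.24 (interval -0.93 to 0.09, adjusted p = 0.450). The other 2 differed by -0.02 ± 0.61 at 1425457_a_at and 0.15 ± 0.46 at 1430164_a_at, with overlapping groups. With median centring the first of these turned to 0.09, and with quantile normalization to 0.06.

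**Figure D3:**
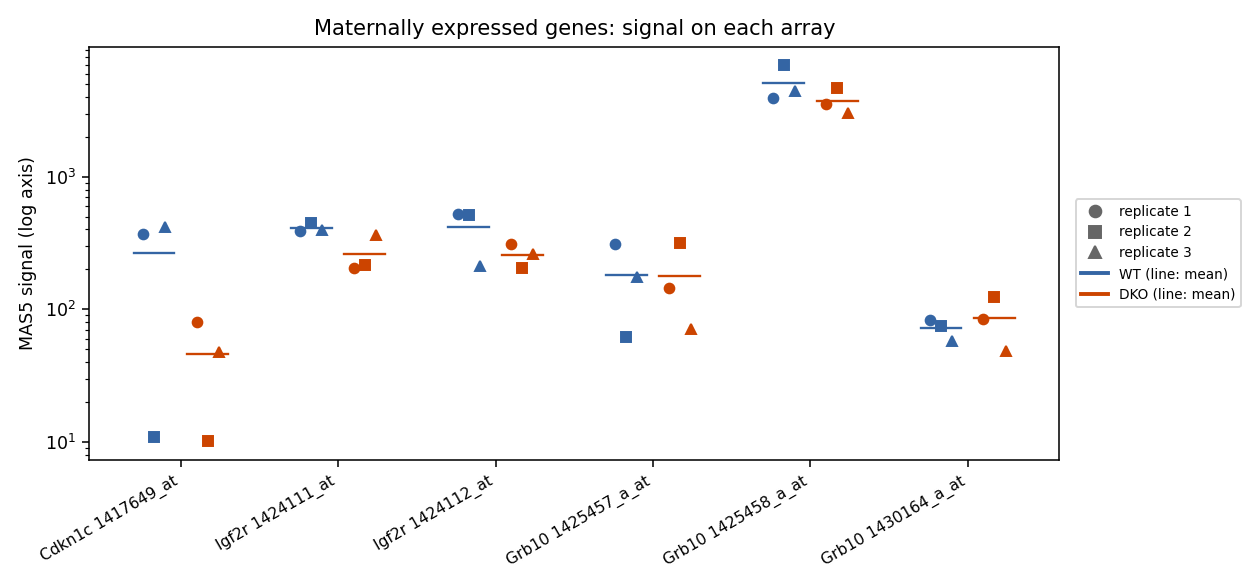
MAS5 signal (log axis) of the 6 tested probe sets of Cdkn1c, Igf2r and Grb10 on each array; symbols mark the replicate number, colours the group and lines the group mean. WT replicate 2 is at 10.9 for Cdkn1c, far below WT replicates 1 and 3, and Igf2r 1424111_at is the 1 probe set whose groups do not overlap.

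Promoter windows were found for 8 of the 10 genes, 14 windows in all, and not for Cdkn1c and H19. They were searched on both strands for the NBRE, the element that NR4A receptors bind as monomers (AAAGGTCA), and for the hexamer AGGTCA, which lies within it. The NBRE was in 0 of the 14 windows and in 1.51% of all 32851. The hexamer was in 2, an Igf2 window and that of Igf2r, and in 16.3% of all. A match is a run of letters and not a measured binding site. The Igf2r window is shown because its gene was lower at both probe sets without passing, with the hexamer in capitals (RefSeq, GRCm38.p6, chr17:12769657-12769956, minus strand).
Igf2r promoter: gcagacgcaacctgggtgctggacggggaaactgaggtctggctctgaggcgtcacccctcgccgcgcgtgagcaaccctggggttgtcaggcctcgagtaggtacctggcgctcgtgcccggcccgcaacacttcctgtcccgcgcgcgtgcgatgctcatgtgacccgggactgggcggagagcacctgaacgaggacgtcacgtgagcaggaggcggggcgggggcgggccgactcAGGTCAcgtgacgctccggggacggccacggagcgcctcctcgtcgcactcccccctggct
It holds 34 CpG dinucleotides, more than the 11 of Ndn.

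Other imprinted genes, taken from lists chosen by the parental copy they are read from in at least some tissues, did not pass. The arrays measure RNA from both copies together, so imprinting in these cells was not tested. Of 19 maternally expressed genes 7 could be tested at their brightest probe set. All 7 were lower, with a median of -0.78, and 0 fell. The direction was not stable for Osbpl5 (-0.08 ± 0.71) and Meg3 (-0.33 ± 0.50). With 1 array left out these reached 0.09 and 0.04, and Osbpl5 was tested in only 4 of the 6 such fits. Over all 11529 genes the median was -0.01, 5856 were lower, and 1.71% changed. The smallest p were those of Blcap (-0.87 ± 0.30, adjusted p = 0.199) and Tssc4 (-0.81 ± 0.32, adjusted p = 0.271), both without overlap of the groups. The median was -0.29 with no filter on low values, -0.51 with an offset of 64, -0.50 without WT replicate 1 and -0.52 without DKO replicate 3. Of 23 other paternally expressed genes 10 were tested, 8 lower and 2 higher, with a median of -0.21 and 0 past the threshold. Leaving out WT replicate 1 gave a median of -0.01 and leaving out WT replicate 2 one of -0.44; for DKO replicates 1 and 3 it was -0.34 and -0.11. They were led by Sgce, a membrane sarcoglycan (-1.13 ± 0.43, adjusted p = 0.251), and Peg10, a gene derived from a retrotransposon (1.24 ± 0.65, adjusted p = 0.415). Peg10 was dim, at 53.1, 69.5 and 4.9 in WT and 57.3, 231.6 and 73.1 in DKO, with overlapping groups. Its WT mean of 42.5 lay below the limit for testing. With 1 array left out its difference was as low as 0.61, and 5 of the 6 such fits tested it. The factors that keep imprints, such as the methyltransferase Dnmt1 and the cofactor Trim28, had a median of 0.07 over 9 tested genes of 12, 4 lower and 5 higher, with 0 past the threshold; the median turned to -0.02 without WT replicate 1 and -0.01 without DKO replicate 3. Their smallest p were those of the chromatin remodeller Hells (0.58 ± 0.27, adjusted p = 0.361) and the histone methyltransferase Setdb1 (-0.39 ± 0.22, adjusted p = 0.445).

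**Figure D4:**
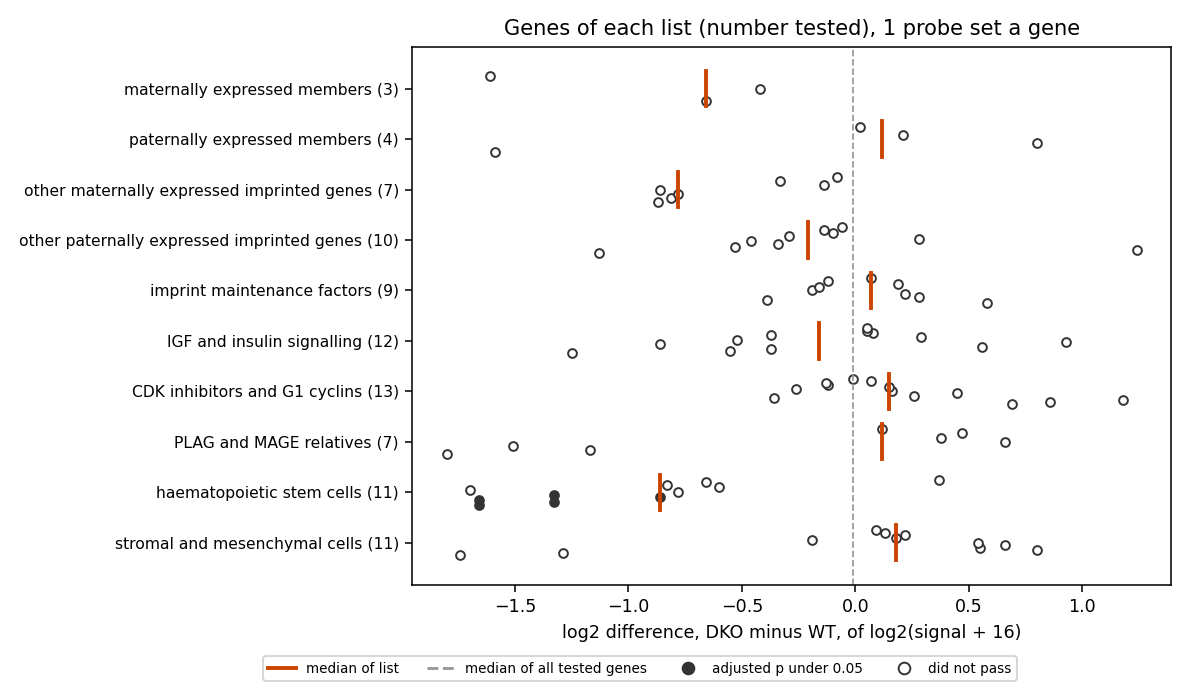
Log2 difference, DKO minus WT, of each tested gene (1 probe set a gene) in the imprinted gene lists, the pathway lists and the stem cell and stromal markers; orange bars are list medians and the dashed line the median of all tested genes. All 7 other maternally expressed genes lie below 0, the nearest being Osbpl5 at -0.08. The filled points, past the threshold, are the 5 stem cell markers.

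In IGF and insulin signalling, 12 of 20 genes were tested, 6 lower and 6 higher, with a median of -0.16 and 0 past the threshold at their brightest probe sets. Leaving out WT replicate 2 or 3 turned the median to 0.01 or 0.03, and leaving out DKO replicate 1 or 2 gave -0.07 or -0.26. Under the stricter filter, which drops the dimmest 60%, it was -0.37. The growth factor gene Igf1 gave 222.6, 321.3 and 231.9 in WT and 139.7, 62.5 and 106.5 in DKO, a difference of -1.25 ± 0.42 (adjusted p = 0.188) without overlap. Its receptor Igf1r gave 4850.6, 4202.6 and 3750.3 in WT and 3405.2, 2718.6 and 2636.7 in DKO (-0.55 ± 0.18, adjusted p = 0.193), and all 5 of its tested probe sets were lower. Igf2bp3, a fetal RNA-binding protein named for its binding to Igf2 mRNA, went the other way. It was picked out after its values were seen. Its 6 probe sets read 1 gene on the same arrays and are not separate results. Over all tested probe sets, 8.76% were higher without overlap and 0.807% rose. All 6 of Igf2bp3 were higher in every DKO pool than in any WT pool, by 0.56 to 1.63, and 1 rose. At that probe set, 1433732_x_at, WT gave 199.1, 165.3 and 226.4 and DKO gave 652.7, 591.5 and 674.1 (1.63 ± 0.31, adjusted p = 0.0259). Omitting 1 array at a time, it passed in 2 of 6 fits, with adjusted p up to 0.121, and it also missed with the replicate number as a block (adjusted p = 0.0507) and without an intensity trend (adjusted p = 0.0518).

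Among the CDK inhibitors and G1 cyclins, 13 of 14 genes were tested, 5 lower and 8 higher, with a median of 0.15, which was 0.42 without WT replicate 2 and 0.03 without WT replicate 1. The other CIP/KIP inhibitors, Cdkn1a and Cdkn1b, differed by -0.36 and 0.16 and did not pass. Cdk6, a kinase that drives stem cells out of quiescence, was higher in every DKO pool at all 3 probe sets. These also read 1 gene on the same arrays, and 8.76% of all tested probe sets were higher without overlap. At the brightest Cdk6 probe set, WT gave 4570.5, 3688.8 and 4976.7 and DKO gave 7546.9, 7267.2 and 6491.4 (0.69 ± 0.17, adjusted p = 0.0713). At 1460291_at it rose by 1.28 ± 0.22 (adjusted p = 0.0175), and omitting 1 array at a time it passed in 3 of 6 fits; it did not pass without an intensity trend (adjusted p = 0.142). The cyclin gene Ccnd1 was at 0.86 ± 0.27 (adjusted p = 0.155). Among relatives of Plagl1 and Ndn, 7 of 8 genes were tested, 3 lower and 4 higher, with a median of 0.12 and 0 past the threshold. The median turned to -0.04 without DKO replicate 2 and -0.02 with no filter. The 4 higher genes, Maged2, Nsmce3, Plagl2 and Magee1, differed by 0.12 to 0.66, with overlapping groups. Plag1, an activator of Igf2, gave 375.0, 333.4 and 441.5 in WT and 61.8, 150.0 and 98.3 in DKO. This difference of -1.80 ± 0.40 narrowly missed the threshold (adjusted p = 0.0538), and the second Plag1 probe set was at -0.44 ± 0.51 with overlap. The MAGE gene Mageh1 was lower without overlap (-1.17 ± 0.43, adjusted p = 0.236).

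**Figure D5:**
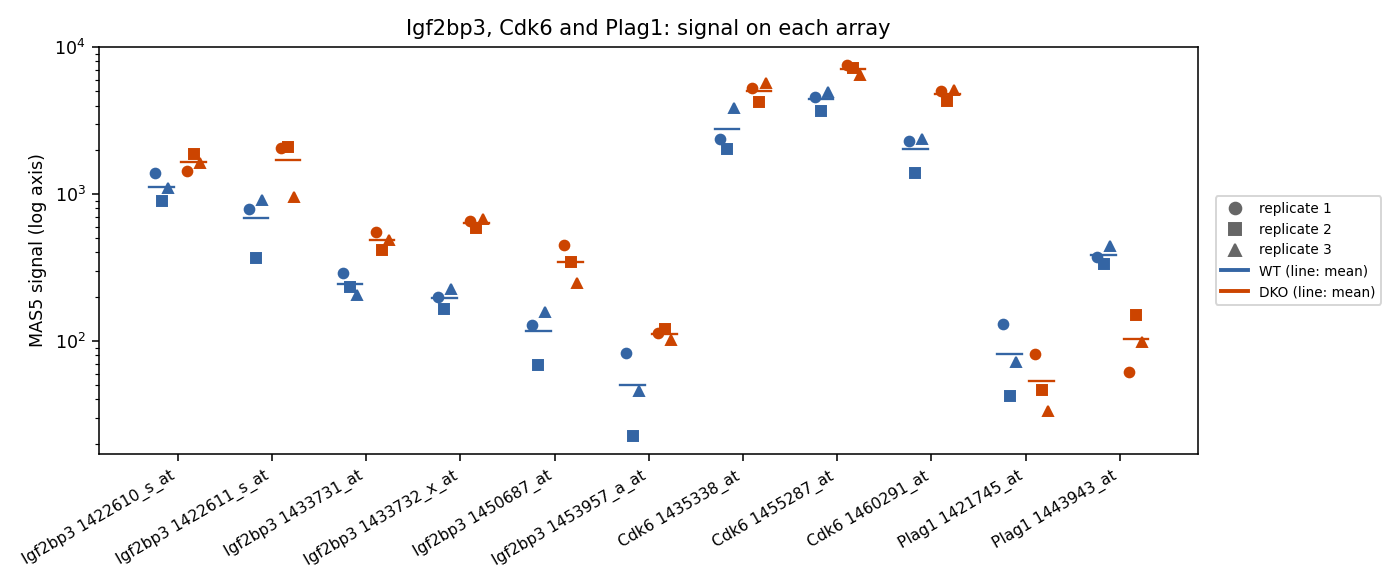
MAS5 signal (log axis) of the tested probe sets of Igf2bp3, Cdk6 and Plag1 on each array; symbols mark the replicate number, colours the group and lines the group mean. All 6 Igf2bp3 and 3 Cdk6 probe sets are higher in every DKO pool, and Plag1 1443943_at is lower in every DKO pool.

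Several of these genes are also read by connective tissue cells. Of 12 stromal and mesenchymal markers 11 were tested, 3 lower and 8 higher, with a median of 0.18 and 0 past the threshold. Their summed signal ran from 4617 to 13842 in WT and from 6971 to 14223 in DKO, with WT replicate 1 the lowest array. Endothelial markers summed to 2096 to 3416 in WT and 1575 to 1620 in DKO. Of these 8 genes 7 were lower and 1 higher, with a median of -0.63. Exactly 1 of 8, Emcn, which stem cells also express, fell (-1.95 ± 0.35, adjusted p = 0.0206). Tie1 was lower without overlap but did not pass (-2.23 ± 0.54, adjusted p = 0.0744). Mast cell, basophil and eosinophil markers were higher in 8 of 8 genes, at 25458 to 31974 against 1360 to 12538, and T and NK cell markers in 9 of 9, at 9675 to 14624 against 785 to 1451. Of these, Fcer1a, Ccr3, Cd3e and Gzmb had WT signals of at most 43.0, below the limit for testing of about 53.2. They were tested only through their DKO signals, so they could be counted only as higher. Over all 11529 tested genes, 5673 were higher, 124 rose and 73 fell. Of 6 plasma cell markers 5 were tested, 4 higher and 1, Sdc1, lower (-0.74, adjusted p = 0.351). Igha and Jchain rose and made up most of the summed signal in DKO, 19420 to 46828 against 2923 to 3802 in WT, while Xbp1 and Prdm1 did not pass. How far these cells contribute to the imprinted gene signals was not tested.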

How the data were processed

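The deposited table holds 1 linear intensity per probe set and array, the MAS5 signal, with MAS5 named in the submitters' processing notes and no version given. In the deposited values the trimmed mean, with 2% left out at each end, was 500 on every array, so the authors' scaling was kept. Detection calls were not used. Median signals were 91.6 to 122.5, and the number of arrays limits the precision. No batch or date is given in the sources used here, and 0 columns belonged to other samples.

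From 45101 probe sets 64 controls were left out. Of the remaining 45037, 34945 have 1 symbol in the platform annotation, 932 several and 9160 none; 34741 were matched to the RefSeq gene table of GRCm38.p6, which changed 0 symbols. Probe sets whose mean log2(signal + 16) was in the lowest 40% were not tested. The other 27022 were fitted with limma 3.58.1 in R 4.3.3 (lmFit, eBayes with an intensity trend, two-sided), and p-values were adjusted by Benjamini-Hochberg over all 27022. A probe set under the filter has the value of the fit with no filter. The code was tested on simulated data. A gene in a list stands by its brightest tested probe set; in each list the members past the threshold, or else the 2 with the smallest p, were named. The members and lists were chosen with earlier results of these data known. The added 16 makes the fold change of a dim gene smaller than it is.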

Additional observations from a re-analysis of the deposited data

How the results depend on the processing

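The 1 Ndn probe set past the threshold stayed there in 8 of 9 other settings with all arrays, and the 5 Ndn probe sets tested in the main setting were lower in each setting that tested them (4 of them with the lowest 60% left out). With no filter all 8 entered, and 1438978_x_at, a dim one, was higher (0.17). The count of changed member probe sets was 2 with an offset of 64, with the lowest 60% left out, with array quality weights and with the replicate number as a block, the second being Ndn 1437853_x_at (adjusted p = 0.0349 to 0.0487). It was 0 without an intensity trend, 3 at a threshold of 0.10, and 0 to 2 with an array left out. Over all probe sets the 370 calls became 208 with no filter, 88 without a trend, 563 with array quality weights, 738 at a threshold of 0.10, and 104 to 469 with an array left out. The deviations of same-numbered pools correlated at 0.142, -0.031 and 0.053, so the numbers were not taken as pairs. Of the lists, paternally expressed members had 1 gene past the threshold, Ndn, with an offset of 64, the 60% filter, array weights, the replicate block or the 0.10 threshold, and the maternally expressed members and the other maternally expressed genes had 1 each without WT replicate 2 and 0 with any other array left out. PLAG and MAGE relatives had 1, Plag1, in the same settings except the block, and CDK genes 1 at 0.10. The median of the other maternally expressed genes, -0.78, was -0.49 with array weights, -0.51 with an offset of 64, -0.29 with no filter and -0.91 to -0.50 with an array left out. That of the imprint factors was -0.02 with no filter and 0.18 with median centring, and -0.02 to 0.21 with an array left out, and that of the CDK genes 0.03 to 0.42. Signs turned with an array left out for Mest (-0.23 to 0.33; -0.09 with array weights), Plagl1 1450533_a_at (-0.68 to 0.08), both Peg3 probe sets (-0.22 to 0.91 and -0.15 to 0.53), and Grb10 1425457_a_at (-0.58 to 0.45; 0.06 with quantile normalization, 0.09 with median centring) and 1430164_a_at (-0.11 to 0.44). Median centring moved the median of all probe sets from -0.05 to 0.06.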
